A study of Homo sapiens with 12 samples.

Results

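The 10 genes followed here encode the retinoblastoma (RB) protein family (RB1, RBL1, RBL2), the E2F transcription factors E2F1, E2F2, E2F4, E2F7 and E2F8, and FOXM1 and MYBL2. They were chosen by symbol, with earlier results of these data known, from the 38021 gene names of the count table. All 10 were among the 16838 genes with enough reads to be tested. RNA was sequenced from 786O, a line of clear cell renal carcinoma cells that lack functional VHL, and from WT8 cells, which derive from 786O and express wildtype VHL, the ubiquitin ligase subunit that directs HIF2α to degradation. Each line had been infected with a lentiviral pLKO.1 vector for shControl, a non-targeting shRNA, or for shBMAL1, and selected with puromycin, so that all 12 cultures carried a vector and had been drug-selected. The 4 groups, 786O shControl, 786O shBMAL1, WT8 shControl and WT8 shBMAL1, had 3 libraries each, which the labels call biological replicates. Whether WT8 is 1 clone, and whether both lines were grown and sequenced together, is not given in the sources used here. VHL and any other difference between the lines cannot be told apart.

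RB family proteins bind E2F factors and hold back the genes that a cell needs to enter S phase. Cyclin-dependent kinases release this hold late in G1, and E2F1 and E2F2 then activate replication genes, including several of their own family. E2F4 acts mainly as a repressor together with RBL1 or RBL2, and with the MuvB proteins these form the DREAM complex of resting cells. E2F7 and E2F8 are atypical E2Fs that bind DNA without a DP partner and repress E2F targets later in the cycle. MYBL2 takes over the MuvB proteins in S phase and, with FOXM1, activates the genes of G2 and mitosis. In clear cell renal carcinoma, HIF2α drives the G1 cyclin gene CCND1, whose product works with CDK4 and CDK6 against the RB family.

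To show the control regions of these genes, promoter windows were read from the RefSeq table (GRCh38.p14), from 250 bases before to 50 bases after the annotated start, for the 8 of 10 genes with an entry. FOXM1 and E2F8 had none. The letters searched on both strands were TTTCGCGC, TTTGGCGC, TTTCCCGC and TTTGCCGC for an E2F site, TTTGAA and TTCGAA for a cell cycle homology region (CHR), CCAAT, and the E-box CACGTG, the sequence that BMAL1 binds with CLOCK. The E2F1, RBL1 and E2F2 windows held an E2F match, and they are shown with its letters in capitals. E2F4 is shown as a family member whose transcript moved the other way, with no match to any of the 4 motifs, and MYBL2 with its E-box in capitals. All are printed 5′ to 3′ on the strand of the gene.
E2F1, chr20:33686336-33686635, minus strand: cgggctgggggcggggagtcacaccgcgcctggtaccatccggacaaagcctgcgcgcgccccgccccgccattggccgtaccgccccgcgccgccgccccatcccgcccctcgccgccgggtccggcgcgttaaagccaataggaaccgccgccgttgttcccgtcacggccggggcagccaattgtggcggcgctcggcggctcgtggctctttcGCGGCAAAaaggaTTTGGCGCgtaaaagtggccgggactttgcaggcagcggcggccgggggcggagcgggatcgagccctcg
RBL1, chr20:37095948-37096247, minus strand: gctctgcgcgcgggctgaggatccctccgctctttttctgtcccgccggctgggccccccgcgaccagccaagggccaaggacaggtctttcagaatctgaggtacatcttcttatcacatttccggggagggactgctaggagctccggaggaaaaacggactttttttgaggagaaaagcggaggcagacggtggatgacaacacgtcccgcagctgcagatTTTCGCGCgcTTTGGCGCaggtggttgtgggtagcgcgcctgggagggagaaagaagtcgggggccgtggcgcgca
E2F2, chr1:23531184-23531483, minus strand: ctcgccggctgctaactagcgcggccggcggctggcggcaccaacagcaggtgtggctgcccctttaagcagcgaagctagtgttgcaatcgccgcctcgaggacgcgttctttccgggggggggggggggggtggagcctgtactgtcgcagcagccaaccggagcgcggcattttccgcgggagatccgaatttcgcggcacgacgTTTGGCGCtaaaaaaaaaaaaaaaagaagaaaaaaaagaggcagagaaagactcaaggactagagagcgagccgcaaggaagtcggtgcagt
E2F4, chr16:67191905-67192204, plus strand: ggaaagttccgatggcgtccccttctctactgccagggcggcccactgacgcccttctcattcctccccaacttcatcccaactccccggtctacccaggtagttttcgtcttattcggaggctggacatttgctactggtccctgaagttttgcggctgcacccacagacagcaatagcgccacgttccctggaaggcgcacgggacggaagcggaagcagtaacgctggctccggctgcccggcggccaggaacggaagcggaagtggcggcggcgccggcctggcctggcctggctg
MYBL2, chr20:43666864-43667163, plus strand: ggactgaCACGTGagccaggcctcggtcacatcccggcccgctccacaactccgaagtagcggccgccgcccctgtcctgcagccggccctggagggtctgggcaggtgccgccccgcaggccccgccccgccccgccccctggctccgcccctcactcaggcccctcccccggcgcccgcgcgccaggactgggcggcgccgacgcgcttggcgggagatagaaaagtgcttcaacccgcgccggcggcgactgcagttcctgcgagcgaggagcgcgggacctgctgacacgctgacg

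E2F letters stood within 50 bases before the start in each of the 3 genes that held them. Positions count from the annotated start to the first base of the match as printed. E2F1 had TTTGCCGC on the opposite strand at -33 and TTTGGCGC at -20, RBL1 had TTTCGCGC at -26 and TTTGGCGC at -16, and E2F2 had TTTGGCGC at -42. Of all 35116 promoter windows in the table, 3.31% held an E2F match. CCAAT letters occurred 3 times in E2F1, 4 times in E2F7 and once in a second RBL2 window (34.6% of all windows). Of the 8 genes, RBL2 alone held a CHR match (16.4% of all windows), and MYBL2 alone held the E-box, at -243 (7.26% of all windows). The RB1 entry lay 172699 bases inside the gene and is not shown. These matches describe exact letters in a window. A gene without a match, MYBL2 among them for E2F, can still hold a site with other letters. No binding was measured.

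Total counts per library were 33182005 to 36477484. BMAL1, listed as ARNTL, fell with shBMAL1 from 12.1 ± 1.37 to 3.94 ± 0.22 CPM in 786O (adjusted p 4.9e-13, edgeR) and from 9.24 ± 0.966 to 1.66 ± 0.236 CPM in WT8 (adjusted p 2.66e-17). CPM is a gene's count relative to the total of its library after TMM scaling, given here as mean ± SD (n = 3). VHL was at 18.8 CPM in 786O shControl and 980.7 CPM in WT8 shControl, with 646.9 CPM in WT8 shBMAL1. Its level in WT8 was thus 1.52-fold lower with shBMAL1 (log2 -0.60, SE 0.05, adjusted p 6.67e-13, edgeR). The part of this fall in the changes of the 10 genes was not tested. Tubule and carcinoma markers were present in all libraries for PAX8 (10745 to 50597 counts), PAX2, KRT8, KRT18, VIM and CDH6. CA9, a HIF target of clear cell carcinoma, had at most 49 counts, NDUFA4L2 at most 60, CUBN at most 64 and LRP2 at most 3. Without TMM scaling, EPCAM was at 8.85 CPM in 786O shControl and 0.0201 CPM in WT8 shControl, and AQP1 at 0.138 and 10.3 CPM. The 11 markers of blood, endothelium, liver, muscle and glia summed, without TMM scaling, to 0.138 to 0.805 CPM in 3 groups and to 2.88 to 4.53 CPM in WT8 shControl, where DES and PECAM1 held most of the sum and 5 of the 11 were at 0. PTPRC, CD3E and MYOD1 had at most 1 count in any library. WT8 shControl also had the most genes with at least 10 counts (15862 to 15953, against 15127 to 15370 elsewhere) and 3.91 to 4.29% of counts in 13 mitochondrial genes, against 2.85 to 4.19% elsewhere. The part of these differences in the results that involve WT8 shControl was not tested.

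**Figure D1:**
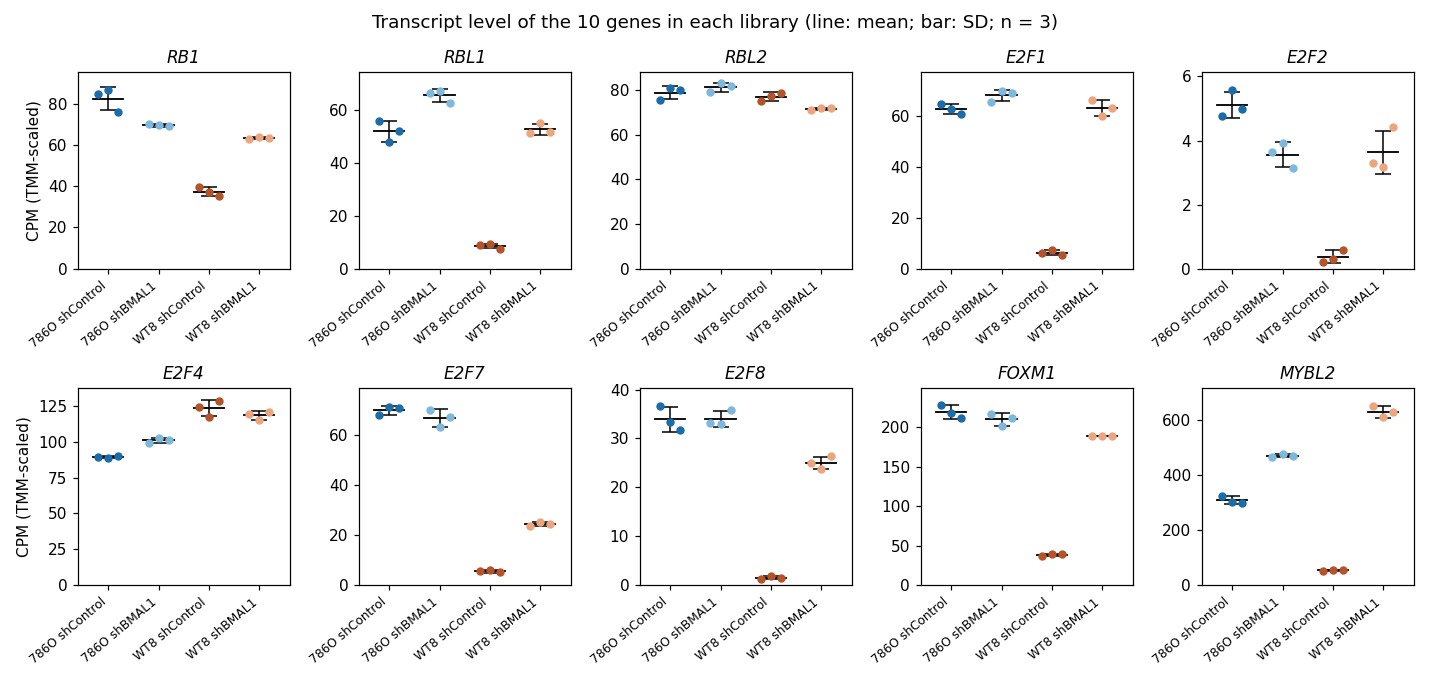
Transcript level (TMM-scaled CPM, linear axis from 0) of each of the 10 genes in the 12 libraries; points are libraries, the line is the mean and the bar the SD of 3 libraries. WT8 shControl sits far below the other groups for 7 genes, RB1 shows a smaller drop, and RBL2 and E2F4 do not show one.

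The plot of levels by library holds the main pattern. In WT8 shControl, 8 of the 10 genes were lower than in 786O shControl, E2F4 was higher and RBL2 was not called, where 79.5% of all genes tested were called. With shBMAL1 in WT8, each of those genes (RB1, RBL1, E2F1, E2F2, E2F7, E2F8, FOXM1 and MYBL2) rose, and E2F1 and RBL1 came to values that overlapped those of 786O shControl. In 786O, shBMAL1 changed 5 of the 10, by at most 1.53-fold, about the background share of 48.9%. In bulk RNA, fewer cells in cycle and less transcript per cell cannot be told apart.

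E2F1, an activator of S phase genes, lies on GRCh37 chromosome 20, 32263283 to 32274191, minus strand. It had 64.7, 62.7 and 60.8 CPM in 786O shControl and 65.4, 69.9 and 68.9 CPM in 786O shBMAL1. In WT8 it had 6.03, 7.40 and 5.57 CPM with shControl and 66.5, 59.9 and 63.2 CPM with shBMAL1. The 3 WT8 shControl libraries thus stood alone at low values, and WT8 shBMAL1 overlapped both 786O groups. E2F1 was 9.92-fold lower in WT8 than in 786O with shControl (log2 -3.31, SE 0.08, adjusted p 1.67e-29, edgeR) and rose 9.99-fold in WT8 under shBMAL1 (log2 3.32, SE 0.08, adjusted p 3.48e-29). In 786O the libraries did not overlap, but the difference was not called (log2 0.12, SE 0.06, adjusted p 0.128). With RLE factors, library totals, DESeq2 or the 2 groups alone this difference was called, at adjusted p 0.0966, 0.0947, 0.0841 and 0.069, and it was also called without WT8 shControl replicate 2 (adjusted p 0.0817).

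E2F2, the second activator, lies on chromosome 1, 23832930 to 23857725, minus strand, and had the lowest level per kilobase of the 10. It had 164, 195 and 176 counts in 786O shControl (4.78, 5.58 and 5.00 CPM) and 127, 136 and 109 counts in 786O shBMAL1 (3.65, 3.91 and 3.13 CPM). In WT8 it had 8, 10 and 22 counts with shControl (0.217, 0.290 and 0.598 CPM) and 124, 119 and 165 counts with shBMAL1 (3.30, 3.18 and 4.42 CPM). Replicate 3 was the highest library of both WT8 groups, and the groups of WT8 did not overlap. The CPM of E2F2 in WT8 shControl had a coefficient of variation of 54.8%, so its fold changes are the least precise of the set. E2F2 was 13.7-fold lower in WT8 with shControl (log2 -3.78, SE 0.25, adjusted p 4.36e-16, edgeR), and shBMAL1 raised it 9.73-fold in WT8 (log2 3.28, SE 0.25, adjusted p 8.65e-14). In 786O, shBMAL1 lowered it (log2 -0.52, SE 0.18, adjusted p 0.0166), the direction opposite to that in WT8.

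The repressor E2F4, on chromosome 16, 67226058 to 67232821, plus strand, had the highest level per kilobase of the E2Fs. Its libraries read 89.4, 88.6 and 89.7 CPM in 786O shControl and 98.9, 102.8 and 101.1 CPM in 786O shBMAL1. They read 124.3, 117.1 and 128.1 CPM in WT8 shControl and 119.5, 114.9 and 121.0 CPM in WT8 shBMAL1. Every WT8 library was above every 786O library, the 786O groups did not overlap, and the WT8 groups did. E2F4 was 1.38-fold higher in WT8 with shControl (log2 0.47, SE 0.05, adjusted p 3.75e-11, edgeR) and rose slightly with shBMAL1 in 786O (log2 0.18, SE 0.05, adjusted p 0.00213). Its difference in WT8 was not called (log2 -0.06, SE 0.05, adjusted p 0.289), although upper-quartile scaling called it lower (log2 -0.13, adjusted p 0.0124).

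The atypical repressor E2F7, on chromosome 12, 77415028 to 77459349, minus strand, had 67.9, 71.1 and 70.8 CPM in 786O shControl and 70.1, 63.3 and 67.0 CPM in 786O shBMAL1. In WT8 its values were 5.44, 6.15 and 5.06 CPM with shControl and 23.8, 25.3 and 24.3 CPM with shBMAL1. The 786O groups overlapped, and the WT8 shBMAL1 libraries lay between those of WT8 shControl and of 786O with no overlap. E2F7 was 12.6-fold lower in WT8 with shControl (log2 -3.66, SE 0.08, adjusted p 4.54e-31, edgeR) and rose 4.42-fold with shBMAL1 (log2 2.14, SE 0.08, adjusted p 3.27e-23). It stayed 2.73-fold lower in WT8 than in 786O where both carried shBMAL1 (log2 -1.45, SE 0.06, adjusted p 6.43e-21), the widest gap between the lines in that comparison among the 10 genes.

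E2F8, its close relative, lies on chromosome 11, 19245610 to 19263167, minus strand, and shares exonic bases with the antisense CSRP3-AS1. Its values were 36.6, 33.3 and 31.7 CPM in 786O shControl and 33.2, 32.9 and 35.9 CPM in 786O shBMAL1. In WT8 shControl only 43, 61 and 56 counts were seen (1.17, 1.77 and 1.52 CPM), against 25.0, 23.8 and 26.3 CPM in WT8 shBMAL1. Libraries of WT8 shBMAL1 were all below those of 786O and far above WT8 shControl. E2F8 had the widest differences of the 10 genes, 22.8-fold lower in WT8 with shControl (log2 -4.51, SE 0.11, adjusted p 9.66e-29, edgeR) and 16.9-fold higher in WT8 under shBMAL1 (log2 4.08, SE 0.11, adjusted p 7.43e-27). In 786O its difference was not called (log2 0.01, SE 0.08, adjusted p 0.967), and with shBMAL1 in both lines it was 1.36-fold lower in WT8 (log2 -0.44, SE 0.08, adjusted p 6.51e-06).

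The tumor suppressor RB1, which spans chromosome 13, 48877880 to 49173572, plus strand, and holds LPAR6 within an intron on the other strand, was at 84.7, 86.6 and 75.8 CPM in 786O shControl and 70.0, 69.4 and 68.9 CPM in 786O shBMAL1. In WT8 it was at 39.5, 37.4 and 35.3 CPM with shControl and 62.7, 63.8 and 63.3 CPM with shBMAL1. None of the 4 groups overlapped. RB1 was 2.20-fold lower in WT8 with shControl (log2 -1.14, SE 0.06, adjusted p 1.6e-19, edgeR), rose 1.69-fold in WT8 under shBMAL1 (log2 0.76, SE 0.06, adjusted p 4.11e-14) and fell 1.19-fold with shBMAL1 in 786O (log2 -0.25, SE 0.05, adjusted p 0.000367).

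RBL1, a partner of E2F4 whose gene is itself known as an E2F target, lies on chromosome 20, 35624752 to 35724400, minus strand. Its gene shares exonic bases with an antisense gene for a long non-coding RNA. RBL1 had 55.9, 47.9 and 51.8 CPM in 786O shControl and 66.5, 66.9 and 62.7 CPM in 786O shBMAL1. Its WT8 values were 8.86, 9.28 and 7.59 CPM with shControl and 51.2, 54.9 and 51.6 CPM with shBMAL1. WT8 shBMAL1 overlapped 786O shControl and lay below 786O shBMAL1. RBL1 was 6.05-fold lower in WT8 with shControl (log2 -2.60, SE 0.08, adjusted p 1.48e-26, edgeR) and rose 6.13-fold in WT8 under shBMAL1 (log2 2.62, SE 0.08, adjusted p 2.49e-26). The rise with shBMAL1 in 786O was 1.26-fold (log2 0.33, SE 0.06, adjusted p 5.71e-05).

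RBL2, the family member most tied to resting cells, lies on chromosome 16, 53467889 to 53525560, plus strand, and shares exonic bases with the antisense AKTIP. It had 75.7, 80.8 and 80.2 CPM in 786O shControl and 79.0, 83.1 and 81.7 CPM in 786O shBMAL1. With VHL expressed it had 75.1, 77.5 and 78.8 CPM under shControl and 71.1, 72.0 and 71.9 CPM under shBMAL1. 786O shControl overlapped both 786O shBMAL1 and WT8 shControl, and WT8 shBMAL1 lay just below the other groups. RBL2 was not called between the lines with shControl (log2 -0.03, SE 0.05, adjusted p 0.552, edgeR) or with shBMAL1 in 786O (log2 0.04, SE 0.05, adjusted p 0.512). In WT8 its level under shBMAL1 was slightly lower (log2 -0.11, SE 0.05, adjusted p 0.0552). That call was lost without WT8 shControl replicate 3 (adjusted p 0.157), without WT8 shBMAL1 replicate 1 (0.111) or replicate 2 (0.102), with no filter on low counts (0.175), and with the 2 groups fitted alone (0.202).

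The forkhead factor FOXM1, on chromosome 12, 2966846 to 2986340, minus strand, had 228.4, 218.8 and 211.6 CPM in 786O shControl and 216.7, 201.4 and 212.5 CPM in 786O shBMAL1. In WT8 it had 37.2, 39.2 and 39.3 CPM with shControl and 188.9, 189.4 and 189.3 CPM with shBMAL1. The 786O groups overlapped, WT8 shBMAL1 lay just below them, and WT8 shControl lay far below. FOXM1 was 5.70-fold lower in WT8 with shControl (log2 -2.51, SE 0.05, adjusted p 4.27e-32, edgeR) and rose 4.91-fold in WT8 under shBMAL1 (log2 2.29, SE 0.05, adjusted p 1.69e-30). No change was called in 786O (log2 -0.06, SE 0.04, adjusted p 0.261). FOXM1 shares exonic bases with the antisense ITFG2 and was the 1 gene of the 10 with counts that were not whole, and how such reads were assigned was not tested.

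MYBL2, on chromosome 20, 42295659 to 42345135, plus strand, had the highest level per kilobase of the 10 in 3 of the 4 groups. It was at 324.2, 300.3 and 298.0 CPM in 786O shControl and 464.2, 477.2 and 468.0 CPM in 786O shBMAL1. Its WT8 libraries were at 52.5, 54.5 and 55.5 CPM with shControl and 650.9, 608.8 and 627.7 CPM with shBMAL1. No groups overlapped, and WT8 held both the lowest and the highest group. MYBL2 was 5.68-fold lower in WT8 with shControl (log2 -2.50, SE 0.05, adjusted p 1.71e-32, edgeR) and rose 11.6-fold in WT8 under shBMAL1 (log2 3.54, SE 0.05, adjusted p 1.9e-35). In 786O it rose 1.53-fold (log2 0.61, SE 0.04, adjusted p 3.14e-14), the widest change with shBMAL1 in that line among the 10.

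**Figure D2:**
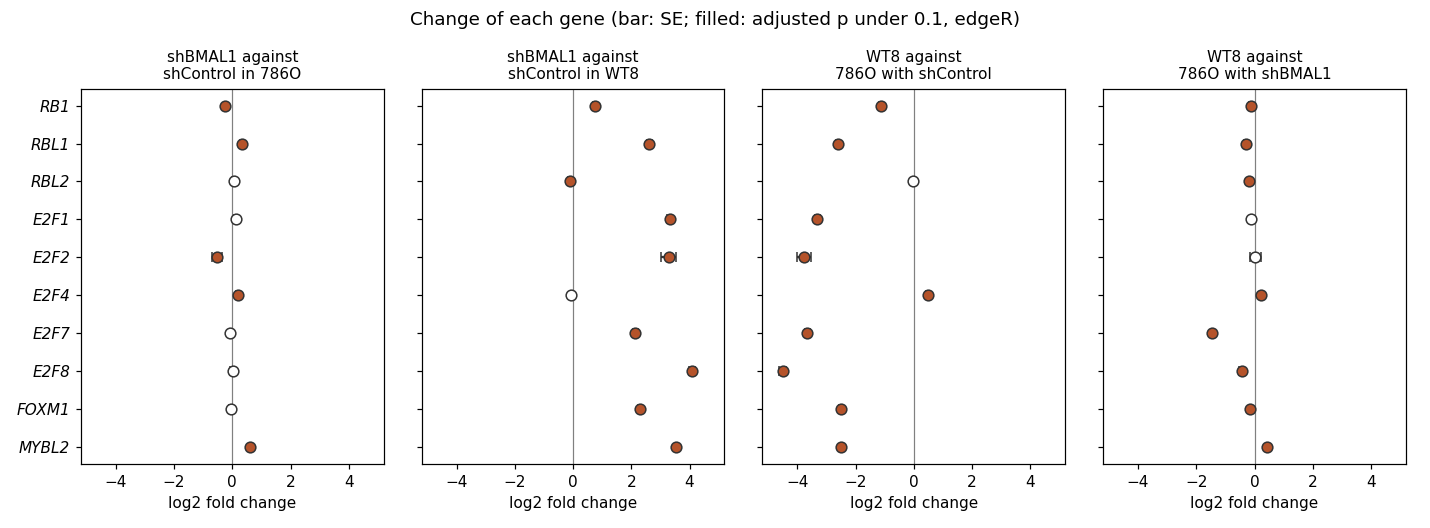
Log2 fold change of the 10 genes with its SE in 4 comparisons, with the genes called at an adjusted p under 0.1 filled. Changes in 786O lie between -0.52 and 0.61, those in WT8 reach 4.08, and those between the lines with shControl reach -4.51.

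The question of what BMAL1 depletion does where VHL is absent was addressed by 786O shBMAL1 against shControl. At an adjusted p under 0.1 in edgeR, 5 of the 10 passed, with RBL1, E2F4 and MYBL2 higher (3) and RB1 and E2F2 lower (2). The median log2 change of the 10 was 0.03. The background over all genes tested was 48.9% called (24.5% up and 24.4% down) around a median of 0.00. The share called among the 10 was thus near the background. A requirement of more than 1.5-fold left 0 of the 5 calls. The share of all genes tested that passes this limit is not given here, so that count has no background.

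The same depletion where VHL is expressed gave 9 calls of 10, 8 higher and RBL2 lower, with a median log2 change of 2.46. The background was 69.8% called (32.9% up and 36.9% down) around a median of -0.04. By signed log2 change, E2F8 stood at percentile 99.8 of all genes tested, MYBL2 at 99.7, E2F1 at 99.6 and E2F2 at 99.5. The comparison of WT8 with 786O under shControl also gave 9 calls, 1 higher (E2F4) and 8 lower, with a median of -2.55, beside 79.5% of all genes called, 39.3% higher and 40.2% lower. The share of the 10 called either way was not far above the background in these comparisons, and their medians lay away from it. Both comparisons use the WT8 shControl libraries, so a high or low value there enters each of them with opposite sign.

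A difference between the lines in their response to shBMAL1 was tested as the interaction, the log2 change in WT8 minus that in 786O. The interaction also uses the WT8 shControl libraries, so a low value there raises it. All 10 genes were called, 8 with a higher and 2 with a lower change in WT8 (RBL2 and E2F4), with a median of 2.32. Over all genes 56.0% were called, 27.4% higher and 28.5% lower. The largest was E2F8 (log2 4.07, SE 0.14, adjusted p 1.53e-23, edgeR), followed by E2F2 (log2 3.81, SE 0.31) and E2F1 (log2 3.20, SE 0.10). RB1 had the smallest of the 8 (log2 1.00, SE 0.08), and E2F4 differed by -0.23 (SE 0.07). The RBL2 interaction of -0.15 (adjusted p 0.0706) was lost in 7 of 12 fits that each left out 1 library (adjusted p 0.103 to 0.173), among them each fit without a WT8 shBMAL1 replicate, and with no filter on low counts (0.21).

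The lines were also compared with shBMAL1 in both. Of the 10 genes, 8 were called, 2 higher in WT8 (E2F4 and MYBL2) and 6 lower (RB1, RBL1, RBL2, E2F7, E2F8, FOXM1), around a median of -0.14. The background was 73.0% called (36.0% up and 37.0% down). Only E2F7 differed by more than 1.5-fold with a call at that limit, for which the share of all genes is not given here. RB1, RBL2 and FOXM1 lost their calls where libraries were scaled by their totals alone (adjusted p 0.627, 0.163 and 0.329), and RB1 also under upper-quartile scaling (0.168). E2F1 was not called (log2 -0.11, adjusted p 0.124, edgeR), but it was with the 2 groups fitted alone (0.0784). It was also called without 786O shBMAL1 replicate 1 (0.091), WT8 shControl replicate 2 (0.0816) or WT8 shBMAL1 replicate 1 (0.0737).

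WT8 shBMAL1 was set against 786O shControl only to complete the order of the groups, since both line and shRNA differ. There 8 of 10 genes were called, 2 higher and 6 lower, beside 75.8% of all genes, 36.8% higher and 39.0% lower. MYBL2 was 2.05-fold higher (log2 1.03, SE 0.04, adjusted p 8.62e-22, edgeR) and E2F7 2.86-fold lower (log2 -1.51, SE 0.06, adjusted p 1.42e-21). E2F1 (log2 0.01, SE 0.06) and RBL1 (log2 0.02, SE 0.06) were not called. With libraries scaled by their totals alone, both were called higher (log2 0.12 and 0.13, adjusted p 0.0702 and 0.0593) and RBL2 lost its call (adjusted p 0.66).

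Ordered by level, WT8 shControl was last for RB1, RBL1, E2F1, E2F2, E2F7, E2F8, FOXM1 and MYBL2. Above it, RB1 descended from 786O shControl through 786O shBMAL1 to WT8 shBMAL1 with each step called under TMM scaling. For RBL1 the order was 786O shBMAL1, then WT8 shBMAL1 and 786O shControl, which did not differ by the test. E2F1 was not separated among the other 3 groups in the fit with TMM scaling, although other settings given above called some of these differences. E2F2 was highest in 786O shControl, and 786O shBMAL1 and WT8 shBMAL1 (log2 0.03, SE 0.18, adjusted p 0.903, edgeR) were not separated. E2F7, E2F8 and FOXM1 were highest in both 786O groups, which were not separated from each other, and lower in WT8 shBMAL1. MYBL2 descended from WT8 shBMAL1 through 786O shBMAL1 to 786O shControl with each step called. E2F4 had the reverse order of lines, with both WT8 groups first and not separated, then 786O shBMAL1 and 786O shControl. RBL2 was not separated between 786O shBMAL1 and 786O shControl or between 786O shControl and WT8 shControl, with WT8 shBMAL1 last. Calls of RB1 and FOXM1 between the lines with shBMAL1, and of RBL2 that place WT8 shBMAL1 last, were lost in some settings given above.

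**Figure D3:**
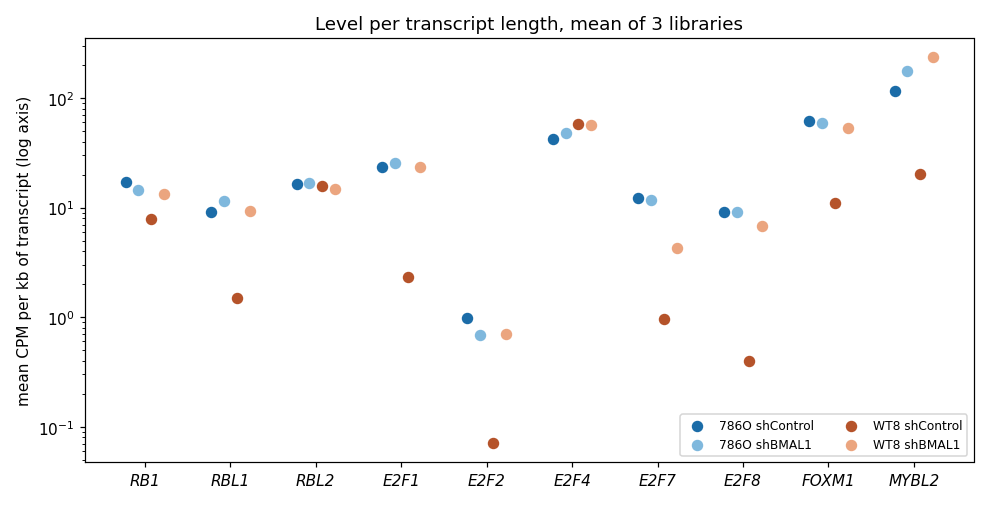
Mean CPM per kilobase of the canonical transcript of each gene by group, on a log axis. MYBL2 is at the top in 3 groups, E2F2 at the bottom in all, and in WT8 shControl E2F4 stands above the other 9.

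Levels were compared between genes after division by the length of the canonical transcript in GENCODE, as the plot on the log axis shows. In 786O shControl, MYBL2 had 115 CPM per kb, FOXM1 61.8, E2F4 42.3, E2F1 23.3, RB1 17.3 and RBL2 16.3. E2F7 had 12.2 CPM per kb, E2F8 9.14, RBL1 9.12 and E2F2 0.986. In WT8 shControl the order changed to E2F4 with 58.4 CPM per kb, MYBL2 with 20.3, RBL2 with 15.9, FOXM1 with 10.9 and RB1 with 7.85, while E2F1 had 2.35, RBL1 1.51, E2F7 0.969, E2F8 0.401 and E2F2 0.0709. The repressor E2F4 was above E2F1 per kilobase in every group, with 56.2 against 23.5 CPM per kb in WT8 shBMAL1. Transcripts other than the canonical one would shift these values.

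Genes whose profile over the 12 libraries came closest to 4 of the 10 were found by the root-mean-square difference of centred log2 CPM among 12947 genes. EXO1 (0.06) and WDR76 (0.11) were among the closest to E2F1, where the median gene was at 1.44. FANCI (0.06), CDCA3 (0.07) and MKI67 (0.07) were closest to FOXM1, where the median was 1.08. For MYBL2 the nearest were MCM10 (0.19), DSCC1 (0.21) and MMS22L (0.24), farther than for the others, with a median of 1.40. SMC1A (0.07), CDK5RAP2 (0.07) and SLC39A8 (0.08) were nearest to RB1, with a median of 0.52. Among the 10 themselves, the closest pairs were RBL1 with FOXM1 (0.20), E2F2 with FOXM1 (0.23) and RBL2 with E2F4 (0.24). The farthest was E2F4 with E2F8 (1.87). A pseudocount of 0.5 CPM was added before taking logs, above the 0.369 CPM of E2F2 in WT8 shControl. It shrinks the drop of E2F2 there, which edgeR put at log2 -3.78, against -2.51 for FOXM1. How near E2F2 stands to FOXM1 with another pseudocount was not tested. The 12 libraries form 4 groups, so these measures mostly describe 4 group levels.

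The partners of the RB and E2F proteins had medians smaller in size than the 10 genes in the comparisons that involve WT8 shControl. With shBMAL1 in 786O the median of these partners was larger than that of the 10 genes (0.03). Of 10 listed genes, all tested, 6 were higher and 1 lower with shBMAL1 in 786O (median log2 0.23), 9 higher and 1 lower in WT8 (median 0.55), and 4 higher and 5 lower in WT8 against 786O with shControl (median -0.28). Over all genes tested, 48.9%, 69.8% and 79.5% were called in these comparisons. TFDP1, a DP partner of E2F factors such as E2F1 to E2F4, rose with shBMAL1 in both lines. It went from 157.9 to 208.8 CPM in 786O (log2 0.40, SE 0.04, adjusted p 7.06e-10, edgeR) and from 98.2 to 240.7 CPM in WT8 (log2 1.29, SE 0.04, adjusted p 1.81e-24). The repressor E2F5 rose in 786O from 17.8 to 27.8 CPM (log2 0.65, SE 0.07), and TFDP2 fell there from 17.3 to 9.52 CPM (log2 -0.86, SE 0.09). Of the MuvB core that RBL2 and MYBL2 share, LIN54 was at 26.2 CPM in 786O shControl, 8.40 in WT8 shControl and 25.2 in WT8 shBMAL1, and LIN9 was at 15.5 and 3.70 CPM in the shControl groups. LIN37, of the same core, went the other way, at 10.5 CPM in WT8 shControl and 6.56 CPM in WT8 shBMAL1 (log2 -0.68, SE 0.11, adjusted p 2.46e-06).

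Upstream of the RB family, 13 of 16 listed G1 cyclins, kinases and inhibitors were tested, while CCND2, CDKN2A and CDKN2B had at most 3 counts in any library. With shBMAL1, 3 were higher and 3 lower in 786O (median log2 0.04), and 9 higher and 3 lower in WT8 (median 0.85). Between the lines with shControl 4 were higher and 9 lower in WT8 (median -0.54). The shares of all genes called were 48.9%, 69.8% and 79.5%, so the count in 786O was at about the background. CCND1, a D-type cyclin, was higher in WT8 than in 786O with shControl (log2 0.36, SE 0.04, adjusted p 1.9e-09, edgeR). It fell under shBMAL1 from 299.6 to 220.0 CPM in 786O (log2 -0.45, SE 0.04, adjusted p 1.17e-10, edgeR) and from 385.4 to 121.0 CPM in WT8 (log2 -1.67, SE 0.04, adjusted p 1.8e-27). The CDK inhibitor CDKN1C also fell in both lines, from 3.59 to 1.19 CPM and from 5.40 to 0.757 CPM. CDC25A, the phosphatase that activates CDK2, was at 68.2 CPM in 786O shControl, 17.4 in WT8 shControl and 95.0 in WT8 shBMAL1, and CDK2 rose in WT8 from 14.0 to 55.2 CPM. The inhibitor CDKN1A was lower in WT8 than in 786O with shControl (37.7 against 144.5 CPM, log2 -1.94, SE 0.05, adjusted p 1.96e-27), and in WT8 shBMAL1 it was at 41.3 CPM (log2 0.13 against WT8 shControl, adjusted p 0.0337).

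**Figure D4:**
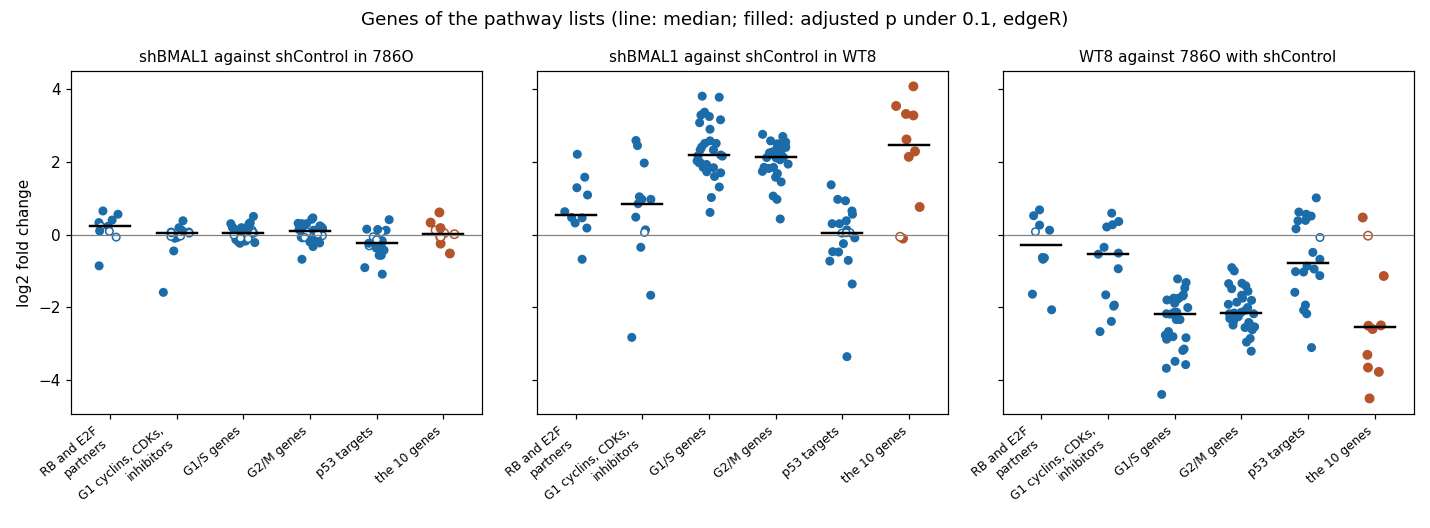
Log2 fold change of each tested gene of the 5 lists and of the 10 genes in 3 comparisons, with the median as a line and the genes called filled. All 30 G1/S and all 30 G2/M genes lie above 0 with shBMAL1 in WT8 and below 0 in WT8 against 786O with shControl, and p53 targets are spread on both sides.

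Downstream, all 30 listed G1/S genes known as E2F targets were higher with shBMAL1 in WT8 (median log2 2.18) and all 30 were lower in WT8 than in 786O with shControl (median -2.19). In 786O, 12 were higher and 5 lower with shBMAL1 (median 0.05). Of all genes, 32.9% were called higher with shBMAL1 in WT8, 40.2% lower between the lines, and 24.5% higher and 24.4% lower in 786O. MCM5, of the replicative helicase, was at 233.3 CPM in 786O shControl, 20.8 in WT8 shControl and 197.6 in WT8 shBMAL1 (log2 3.25, SE 0.05, adjusted p 5.59e-34 in WT8, edgeR). CDC6, which loads the helicase, was at 103.3, 8.04 and 78.5 CPM in the same groups, and it fell with shBMAL1 in 786O to 87.6 CPM (log2 -0.24, SE 0.05). GINS2 and RRM2, the small subunit of ribonucleotide reductase, rose in 786O to 62.5 and 282.1 CPM from 44.3 and 229 CPM.

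The 30 listed G2/M genes known as MYBL2 and FOXM1 targets also all rose with shBMAL1 in WT8 (median 2.13) and were all lower in WT8 with shControl (median -2.15), while 14 rose and 7 fell in 786O (median 0.09), beside the same shares of all genes. The spindle checkpoint kinase gene BUB1 went from 65.2 to 315.4 CPM in WT8 under shBMAL1 (log2 2.27, SE 0.04, adjusted p 2.5e-31, edgeR), and AURKB, the kinase of the chromosomal passenger complex, from 23.0 to 136.9 CPM. TOP2A, the topoisomerase of dividing cells, was at 574.8 CPM in 786O shControl and 62.1 CPM in WT8 shControl (log2 -3.21, SE 0.05, adjusted p 3.5e-34). In 786O, KIF2C and CDK1 rose with shBMAL1, to 179.5 and 192.4 CPM from 130.1 and 143.8 CPM, whereas the phosphatase genes CDC25B and CDC25C fell, to 133.2 and 12.1 CPM from 167.6 and 19.4 CPM.

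Genes known as p53 targets were called in both directions, more often lower with shBMAL1 in 786O and between the lines with shControl. Of 20 tested, 9 were higher and 8 lower with shBMAL1 in WT8 (median 0.05), 4 higher and 11 lower in 786O (median -0.24), and 7 higher and 12 lower in WT8 against 786O with shControl (median -0.78). The background was 32.9% higher and 36.9% lower, 24.5% higher and 24.4% lower, and 39.3% higher and 40.2% lower in these comparisons. CDKN1A is in both this list and that of the G1 genes. GDF15, a secreted stress factor, fell with shBMAL1 from 68.6 to 32.3 CPM in 786O and from 37.5 to 3.66 CPM in WT8 (log2 -3.36, SE 0.10, adjusted p 1.27e-22, edgeR). DDB2, a DNA repair gene, was at 47.5 CPM in 786O shControl and 5.49 CPM in WT8 shControl, and rose with shBMAL1 in WT8 to 14.1 CPM (log2 1.37, SE 0.10, adjusted p 8.79e-15).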

How the data were processed

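RNA was isolated from 12 cultures and sequenced as stranded mRNA libraries on a BGI instrument. According to the methods of the study, read pairs were aligned by the authors against GRCh37 (SeqMan NGen 17) and gene counts came from ArrayStar 17, whereas the submitters' processing notes name hg38, STAR and DESeq2. The deposited values were estimated counts on a linear scale, with 0.028 in place of 0 (47.0% of values) and 5.67% of the others not whole. The annotation, the use of strand and the handling of reads with more than 1 alignment are not given in the sources used here. Counts of genes that share exonic bases with an antisense gene (RBL1, RBL2, E2F8, FOXM1) are thus uncertain.

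Lines were summed by gene name (38074 lines, 38021 names), the stand-in was set to 0 and sums were rounded. After filterByExpr (16838 of 26925 genes with a count kept) and TMM scaling (factors 0.948 to 1.04), the robust quasi-likelihood test of edgeR 4.0.16 (R 4.3.3) was run on the 12 libraries in a single fit of 4 group means. Benjamini-Hochberg adjustment covered every tested gene within a comparison, and genes were called at an adjusted p under 0.1, the false discovery rate of the study. SE was derived from the log2 change and its F value. The common biological coefficient of variation was 5.70%. Replicates correlated with r of 0.996 to 0.997 across genes on log2 CPM, and their chi-square per gene of 4.51 to 12.6 exceeded counting error.

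The 10 genes, the lists (written from memory, without a database) and the rules were chosen with earlier results of these data known. Genes named from a list are among the 2 with the lowest adjusted p in each direction among genes called, in the comparisons of shBMAL1 in each line and of the lines with shControl. The nearest profiles were taken among genes with a mean of at least 50 counts, with a pseudocount of 0.5. Of the genes this rule selects, 1 is not reported here. Positions are from GENCODE on GRCh37 and promoters from RefSeq on GRCh38.p14, and the builds were not mixed. The alternatives were other scaling factors, no filter, DESeq2 1.42.0, a fold limit, fits of 2 groups, a replicate block and leaving out each library.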

Additional observations from a re-analysis of the deposited data

Results flagged for a closer look

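The lines differed in their response to shBMAL1 for all 10 genes, by the edgeR test of the interaction (log2 change in WT8 minus that in 786O, 3 libraries per group, adjusted over all genes tested), where 56.0% of all genes tested were called. Among the E2Fs the difference was 3.20 for E2F1 (adjusted p 7.55e-25), 3.81 for E2F2 (1.1e-12), 2.21 for E2F7 (3.53e-20) and 4.07 for E2F8 (1.53e-23), and it was -0.23 for E2F4 (0.00307). In the RB family it was 1.00 for RB1 (3.02e-13), 2.28 for RBL1 (1.29e-20) and -0.15 for RBL2 (0.0706), a call that was lost in 7 of 12 fits that left out 1 library and with no filter on low counts (0.21). FOXM1 differed by 2.36 (2.14e-26) and MYBL2 by 2.93 (4.05e-29). RB1 and E2F2 fell with shBMAL1 in 786O and rose in WT8, while MYBL2 and RBL1 rose in both. The low WT8 shControl values enter the interaction too, and raise it. No cause of these differences was tested.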

How the results depend on the processing

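Of 1190 values of the 10 genes under 20 alternatives, 1138 kept their side of the threshold, 40 lost a call and 12 gained one. Among values called in either fit, 0 reversed direction. Values called in neither could change sign, as for RBL2 between the lines with shControl (log2 -0.03, and 0.08 with upper-quartile factors). Scaling by library totals alone left 5 calls (2 higher, 3 lower) in place of 8 between the lines with shBMAL1, and gave 4 higher and 5 lower in place of 2 and 6 for WT8 shBMAL1 against 786O shControl. That scaling moved the median of all genes to 0.12, 0.11 and 0.10 in the 3 comparisons between the lines, and upper-quartile factors moved it to -0.12 for shBMAL1 in WT8 and 0.11 between the lines with shControl. A fold limit of 1.5 asks for larger changes. It left 0 calls for shBMAL1 in 786O, 1 between the lines with shBMAL1 and 2 for WT8 shBMAL1 against 786O shControl. The share of all genes that passes this limit is not given here. Leaving out 1 library at a time gave 5 to 6 calls for shBMAL1 in 786O, 8 to 9 in WT8, 9 to 9 and 8 to 9 between the lines with shControl and with shBMAL1, 8 to 8 for WT8 shBMAL1 against 786O shControl and 9 to 10 for the interaction. The RBL2 interaction was lost without 786O shControl replicate 1 (adjusted p 0.173, edgeR), 786O shBMAL1 replicate 2 (0.14) or 3 (0.122), WT8 shControl replicate 3 (0.14), or WT8 shBMAL1 replicate 1 (0.116), 2 (0.114) or 3 (0.103), and with no filter (0.21). DESeq2 called 6, 9, 9, 8, 8 and 10 genes in the 6 comparisons.

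The labels number replicates 1 to 3 in each group. Deviations of 18 same-numbered pairs correlated with r from -0.0818 to 0.0915, with 0 over 0.1, and 4 of 12 libraries correlated best with their own number, so the numbers were not taken to pair the libraries. With the number as a replicate block, 5, 9, 9, 8, 8 and 10 genes were called, as without it. At this depth E2F2 in WT8 shControl (8 to 22 counts) is the least precise value.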
